A study of Mus musculus with 16 samples.

Results

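The albumin gene family of the mouse holds 4 genes that encode related carrier proteins of blood plasma: Gc, Alb, Afm and Afp. They were taken by symbol from a table of 20826 gene symbols, and each is counted there under 1 RefSeq transcript. Transcripts were counted in the livers of 16 male C57BL/6J mice by SuperSAGE, which sequences a short tag beside an NlaIII restriction site of each captured transcript. Each library came from a separately numbered mouse, and each group had 4 mice. Feeding lasted 18 weeks, and the labels give 4 weeks as the age. The HFW group ate a high-fat diet with 1% WEPAK, the water-soluble extract of Pacific krill. The HF group ate the high-fat diet, with 45% fat, and no extract. The NW group ate the normal diet with 1% WEPAK, and the N group the normal diet, with 10% fat, and no extract. The labels list no mutant allele, drug or injury in any group.

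Albumin is the main protein of plasma, sets most of its osmotic pressure and carries fatty acids, bilirubin, hormones and drugs. Its relatives share a fold of repeated domains held by disulfide bonds and are secreted mainly by hepatocytes. Gc encodes the vitamin D-binding protein, which carries vitamin D and its hydroxylated forms and also binds free actin. Afm encodes afamin, a carrier of vitamin E that also keeps Wnt proteins in solution. Afp encodes alpha-fetoprotein, abundant in fetal plasma and shut down in the liver after birth.

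All 4 genes lie on chromosome 5. In the GENCODE M21 annotation of GRCm38, Alb, Afp and Afm follow each other on the plus strand, with gaps of 14.1 kb between Alb and Afp and of 10.0 kb between Afp and Afm. Gc lies 1003 kb from Alb on the minus strand. Gc has 13 exons in the transcript used here, and Alb, Afp and Afm have 15 each.

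The tag that the method should read lies at the last NlaIII site before the poly(A) tail. The counts table holds no tag sequences, so the 26 bases from that site were read from the GENCODE transcripts that match the RefSeq identifiers. They are shown because every level below rests on them, with the NlaIII site CATG in capitals, 5′ to 3′.
Gc, chr5:89426087-89426112, minus strand: CATGgtggagaaacactcggactttg
Alb, chr5:90476480-90476505, plus strand: CATGaagactcaggactcatcttttc
Afp, chr5:90508812-90508837, plus strand: CATGtgagatttctataccttaggaa
Afm, chr5:90553504-90553529, plus strand: CATGttcctacaaaaggcaataaaat
The Gc tag lies in coding sequence, in exon 11, and starts 302 bases before the transcript end. The other tags lie in the last exon, in the 3′ untranslated region, and start 123 bases before the transcript end in Alb, 96 in Afp and 40 in Afm. In the annotation, 0 other genes had any of these as the last tag of a transcript. The transcripts hold 8 NlaIII sites in Gc, 15 in Alb, 16 in Afp and 10 in Afm. Whether the place of the last site affects how often a transcript was counted was not tested.

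The libraries held 56655 to 149349 tags of named genes, and the 4 HF libraries, at 91468 to 149349, were deeper on average than the others. Levels are given in CPM, tags per 1000000 after scaling by edgeR, and 1 tag was worth 6.70 to 17.7 CPM before the scaling. Of all genes, 1046 had enough tags to be tested. N mice 4 and 8 stood at opposite ends of their group in the Gc values below, and results that use the N group are given without them where that matters. Of 14 hepatocyte markers 0 were at 0 tags. Their summed level was 61422 to 93591 CPM in HFW, 61611 to 75104 CPM in HF, 102164 to 118679 CPM in NW and 67802 to 102406 CPM in N. Apoa2, the largest gene of this list, alone held 5.23% of all tags, so the sum mostly follows 1 gene and need not follow the share of hepatocytes. Of 6 blood cell markers 4 were at 0 tags in every library. Of 5 bile duct markers 2 were, the keratins Krt7 and Krt19, and 0 had enough tags for the test. Summed bile duct markers ran from 0 to 93.2 CPM in HFW, 0 to 8.48 CPM in HF, 0 to 18.7 CPM in NW and 0 to 59.5 CPM in N. Summed macrophage markers, with Cd68 and Lyz2 at 0, ran from 507 to 1276 CPM in HFW, 568 to 1095 CPM in HF, 563 to 926 CPM in NW and 744 to 953 CPM in N. Stellate cell and fibroblast markers, with Acta2 and Timp1 at 0, ran from 856 to 4084 CPM in HFW, 547 to 3988 CPM in HF, 409 to 1067 CPM in NW and 548 to 1071 CPM in N. Endothelial markers ran from 601 to 716 CPM in HFW, 747 to 970.0 CPM in HF, 392 to 680 CPM in NW and 432 to 858 CPM in N.

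The members ranged from 0 tags to among the 20 genes with the highest mean CPM. A SuperSAGE count is 1 tag per transcript, so counts need no scaling by length. How fully the tags of different genes were captured and mapped was not tested. The ranks and the order of Gc and Alb below are of tags, and do not show which gene had more RNA. Gc held 11047 tags over all libraries, 0.801% of them, and ranked 11 among all genes by mean CPM. Alb held 7111 tags and ranked 20. Gc had more tags than Alb in 13 of 16 libraries, and Alb had more in N mouse 4 and HF mice 23 and 25. Afm held 39 tags, spread over 13 libraries. Afp was at 0 of 1379164 tags, which allows a level of up to 2.18 CPM over all libraries (3 tags of the total, counting error only). That bound holds only if the Afp tag could be captured and mapped, which was not tested.

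**Figure D1:**
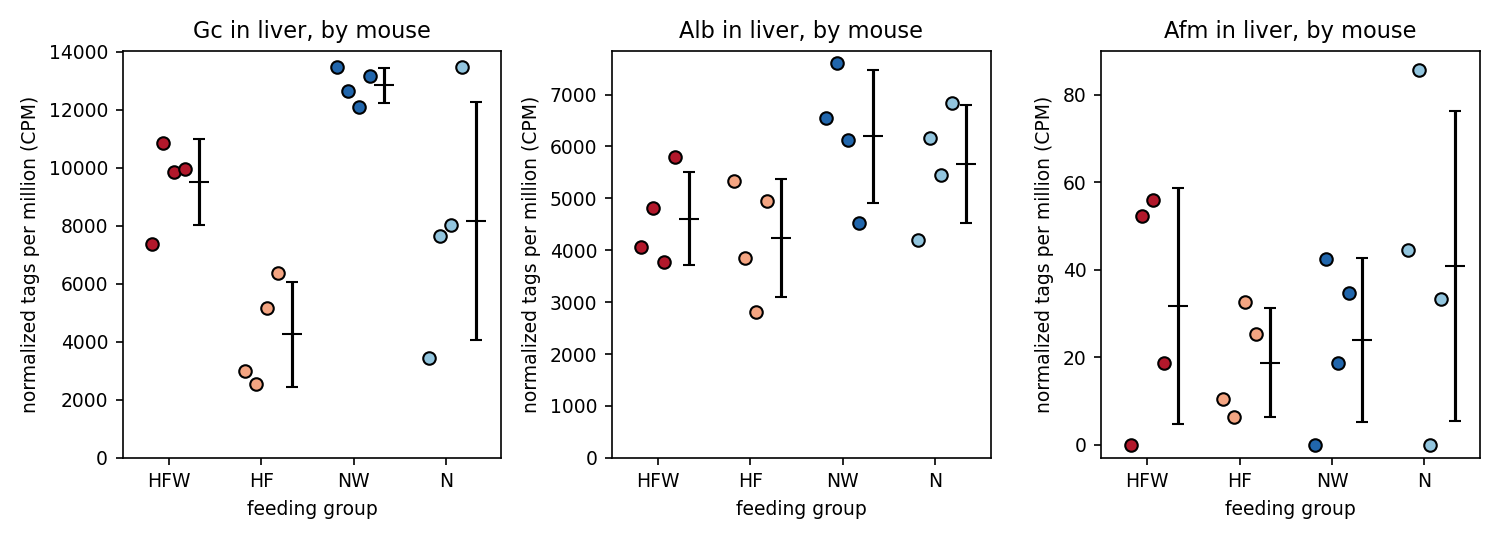
Level in CPM (vertical axis) of Gc, Alb and Afm in each mouse of the HFW, HF, NW and N groups (points), with the group mean and SD beside them (n = 4 each). The 4 HFW mice lie above the 4 HF mice for Gc, at 7367 to 10851 against 2528 to 6358 CPM, while the groups overlap for Alb and Afm.

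Of the 2 members with enough tags for the test, Gc was called higher with the extract on the high-fat diet and Alb was not. HFW mice 34, 36, 38 and 40 had 7367, 10851, 9856 and 9939 CPM of Gc, and HF mice 23, 25, 28 and 29 had 3000, 2528, 5175 and 6358 CPM. Every HFW mouse was above every HF mouse, which held in that direction for 6.79% of the genes tested. The means were 9503 ± 1494 CPM in HFW and 4265 ± 1810 CPM in HF (SD, n = 4 each). The log2 fold change was 1.16 (SE 0.31), a fold of 2.23 with an approximate 95% interval of 1.45 to 3.41 (adjusted p = 0.0176 by edgeR's quasi-likelihood test, with the Benjamini-Hochberg method over all genes tested). Of the 2 members with enough tags for the test 1 rose. Of all genes tested 9.85% were called in this contrast, 4.21% higher and 5.64% lower. Without HF mouse 25 the log2 fold change was 0.97 (edgeR adjusted p = 0.0944) and without HF mouse 23 it was 1.02 (adjusted p = 0.0715), so each of these mice is needed for the call. With every library thinned to the smallest total it was 1.25 (edgeR adjusted p = 0.0114). The summed hepatocyte markers, a list that includes Alb and is dominated by Apoa2, averaged 82080 CPM in HFW and 67247 CPM in HF. Their part in the Gc difference was not tested. In bulk liver, fewer cells of a type and less RNA per cell cannot be told apart.

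On the normal diet the same gene was high in every WEPAK-fed mouse and scattered in the others. NW mice 11, 12, 15 and 20 had 13479, 12651.5, 12096 and 13158 CPM of Gc. N mice 4, 5, 7 and 8 had 3451, 7647, 8033 and 13455 CPM. The coefficient of variation was 4.71% in NW and 50.4% in N, and N mouse 8 lay within the NW range. The means were 12846 ± 605 CPM in NW and 8147 ± 4102 CPM in N, and 4 of 4 NW mice were above the N mean. The log2 fold change of 0.66 (SE 0.31) did not pass (edgeR adjusted p = 0.155), in a contrast where 11% of genes were called, 3.63% higher and 7.36% lower. It was 1.08 without N mouse 8 (edgeR adjusted p = 0.0158) and 0.40 without N mouse 4 (adjusted p = 0.469), and without both mice it was 0.68 (adjusted p = 0.233).

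Averaged over both diets, Gc rose with the extract by a log2 fold change of 0.91 (SE 0.22), a fold of 1.87 with an approximate 95% interval of 1.39 to 2.53 (edgeR adjusted p = 0.00299). In all, 8 of 8 WEPAK-fed mice lay above the mean of the mice on their diet without it, and 31.3% of the genes tested were called, 15.2% higher and 16.1% lower. The effect passed with each of the 16 mice left out, with adjusted p between 0.000134 and 0.00797. The difference between the effects on the high-fat and the normal diet was 0.50 (SE 0.44) and did not pass (edgeR adjusted p = 0.998). Its approximate 95% interval, from -0.36 to 1.36 on the log2 scale, covers both no difference and one as large as the effect itself. The hepatocyte marker sum, dominated by Apoa2, was also higher in NW than in N on average, at 108236 against 80555 CPM. Its part in these Gc values was not tested.

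**Figure D2:**
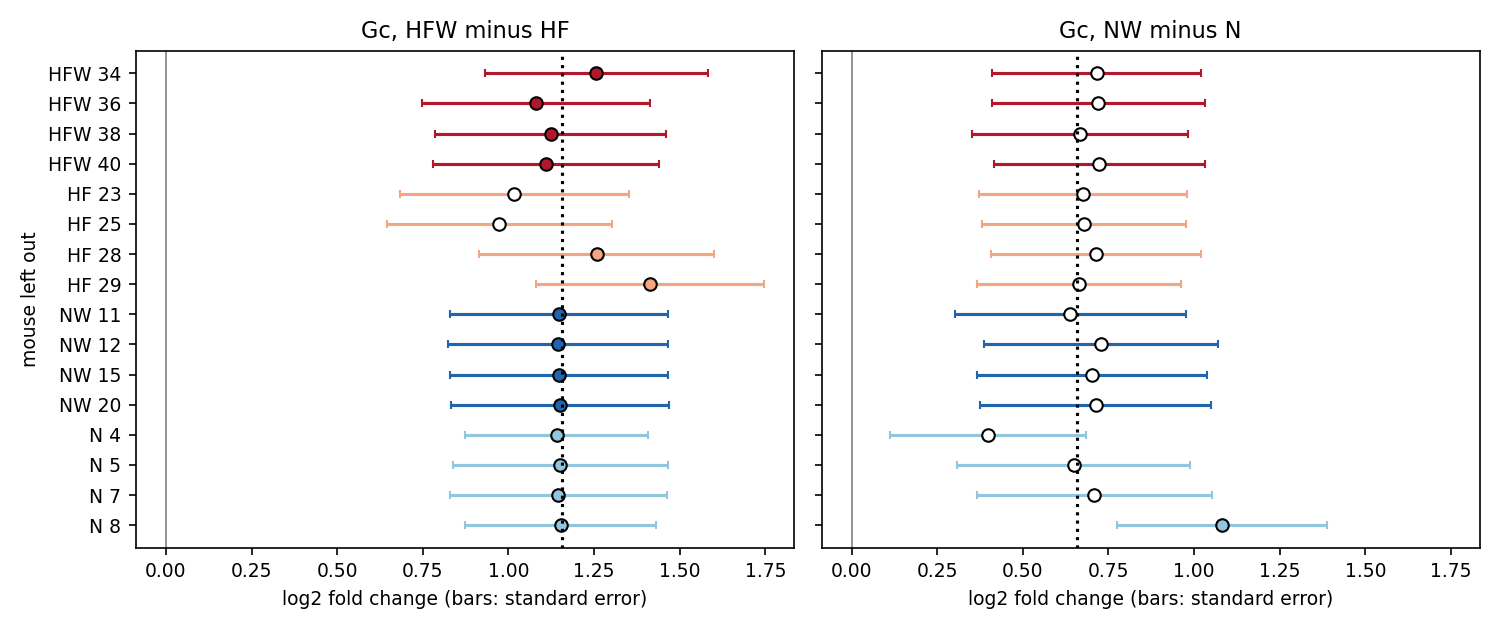
Log2 fold change of Gc (horizontal axis, bars 1 standard error) in HFW minus HF and in NW minus N after leaving out the mouse named on the vertical axis, with the dotted line at the value from all 16 mice. Filled points have an adjusted p under 0.05: HFW minus HF loses the call without HF mouse 23 or 25, and NW minus N gains it without N mouse 8.

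For the high-fat diet by itself, the difference in Gc did not pass. The HF values given above, 2528 to 6358 CPM, overlap the N values of 3451 to 13455 CPM. The log2 fold change was -0.93 (SE 0.31), and 4 of 4 HF mice were below the N mean (edgeR adjusted p = 0.354, unadjusted p = 0.00554). In this contrast 0.0956% of genes were called. The value was -1.18 without N mouse 4 (edgeR adjusted p = 0.0202) and -0.54 without N mouse 8 (adjusted p = 0.958). The difference did not pass without both of these mice. This contrast shares the HF mice with HFW minus HF, in which they stand on the other side, so low Gc in HF mice enters both. With the extract in both diets, every HFW mouse, at 7367 to 10851 CPM, was below every NW mouse, at 12096 to 13479 CPM. Groups lay apart in that direction for 3.06% of genes. The log2 fold change of -0.44 (SE 0.31) did not pass (edgeR adjusted p = 0.531), and in that contrast 0% of genes were called, with 126 at an unadjusted p under 0.05 and 0 called by the DESeq2 Wald test or limma-voom. Averaged over both extract states, the diet effect on Gc was -0.68 (SE 0.22, edgeR adjusted p = 0.0846), where 0.574% of genes were called, 0.287% lower. Of the 16 fits that left out 1 mouse it passed in 1, without N mouse 4, at -0.81 (edgeR adjusted p = 0.00862). In these fits it came as close to no change as -0.51, with edgeR adjusted p up to 0.261. Under the 10 other alternatives, among them the fit without N mice 4 and 8, it passed in 0. Their adjusted p ran from 0.0574 to 0.174 by edgeR, DESeq2 or limma.

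By mean level, Gc was highest in NW, then in HFW, then in N and lowest in HF. Of the neighbours in this order, HFW did not pass against NW and HF did not pass against N. The range of HFW lies inside that of N, and that pair was not tested.

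Alb showed no call in any contrast. HFW mice 34, 36, 38 and 40 had 4061, 4805, 3782 and 5796 CPM of Alb, and HF mice 23, 25, 28 and 29 had 5327, 3855, 2809 and 4942 CPM. NW mice 11, 12, 15 and 20 had 6552, 7605, 6123 and 4519 CPM, and N mice 4, 5, 7 and 8 had 4195, 6160, 5453 and 6844 CPM. All 4 ranges overlap, and the coefficient of variation lay between 19.5% in HFW and 26.8% in HF. The means were 4611 ± 901 CPM in HFW, 4233 ± 1136 CPM in HF, 6200 ± 1281 CPM in NW and 5663 ± 1131 CPM in N (SD, n = 4 each).

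The extract gave Alb a log2 fold change of 0.13 (SE 0.26) in HFW minus HF (edgeR adjusted p = 0.792) and of 0.13 (SE 0.26) in NW minus N (adjusted p = 0.793). As a fold, the approximate 95% interval was 0.769 to 1.55 on the high-fat diet. The mean effect over both diets was a fold of 1.09 with an approximate 95% interval of 0.854 to 1.40, so a change of the size seen for Gc lies outside it. Its direction in HFW minus HF turned negative with no filter on low counts (-0.10) and without HF mouse 28 or HFW mouse 40. The diet effect averaged over both extract states was -0.42 (SE 0.18, edgeR adjusted p = 0.200, unadjusted p = 0.0266). All 8 high-fat mice were below the mean of the normal-diet mice in the same extract state.

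**Figure D3:**
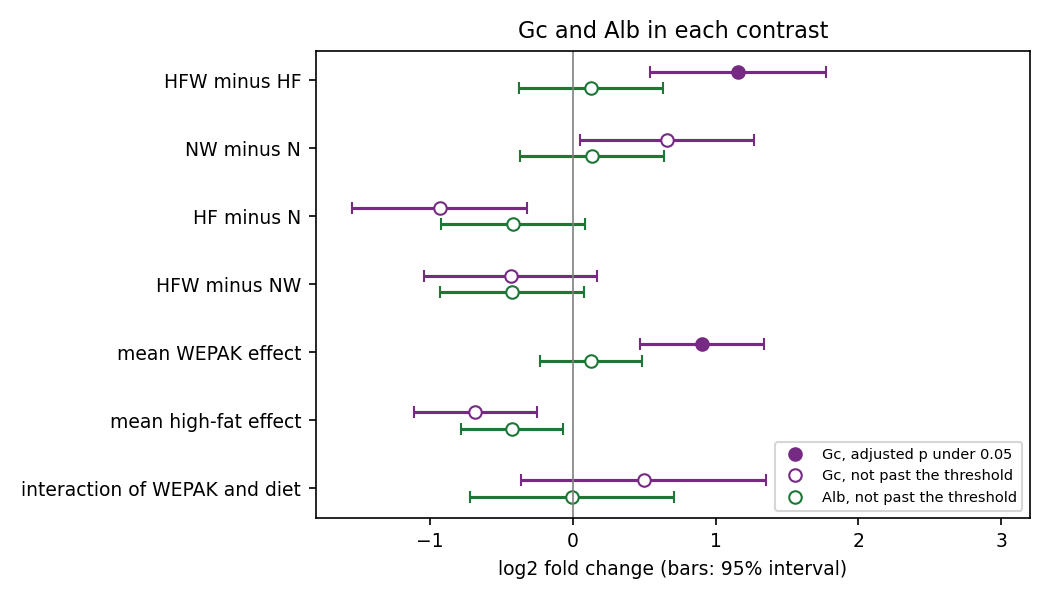
Log2 fold changes (horizontal axis, bars approximate 95% intervals) of Gc and Alb in the 7 contrasts listed on the vertical axis, from the fit of all 16 libraries. Filled points mark an adjusted p under 0.05, which Gc has in HFW minus HF (1.16) and in the mean WEPAK effect (0.91).

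The count of Gc tags per Alb tag compares both genes within a library and does not depend on how libraries are scaled. The ratio was 1.81, 2.26, 2.61 and 1.71 in HFW mice 34, 36, 38 and 40. It was 0.563, 0.656, 1.84 and 1.29 in HF mice 23, 25, 28 and 29. In NW mice 11, 12, 15 and 20 the ratio was 2.06, 1.66, 1.98 and 2.91, and in N mice 4, 5, 7 and 8 it was 0.823, 1.24, 1.47 and 1.97. Every WEPAK-fed mouse had at least 1.66 Gc tags per Alb tag, and the values above that without the extract were those of HF mouse 28 and N mouse 8. The mean ratio was 2.10 ± 0.413 in HFW and 1.09 ± 0.597 in HF, and 2.15 ± 0.534 in NW and 1.38 ± 0.477 in N (SD, n = 4 each). The mean log2 ratio differed by 1.10 in HFW minus HF and by 0.68 in NW minus N. In HFW minus NW it differed by -0.03, so with the extract both diets had nearly the same ratio. These differences of the ratio are descriptions and carry no test.

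**Figure D4:**
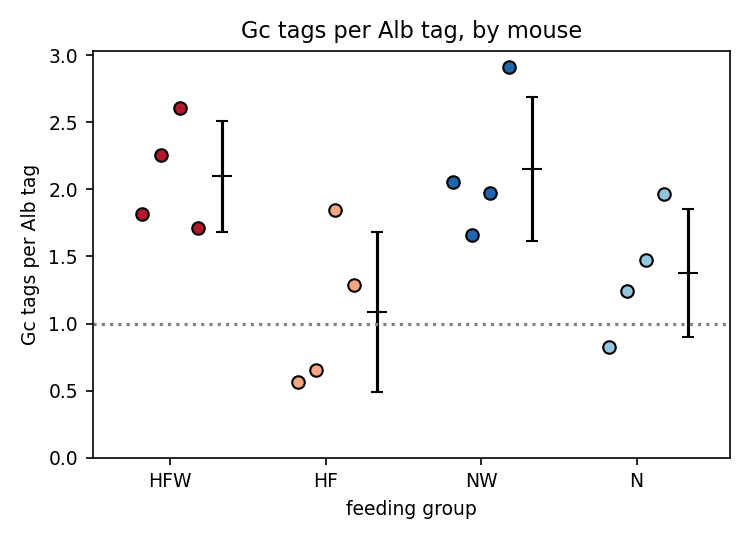
Gc tags per Alb tag (vertical axis) in each mouse of the HFW, HF, NW and N groups (points), with the group mean and SD beside them (n = 4 each) and a dotted line where both genes have the same number of tags. The 8 WEPAK-fed mice lie between 1.66 and 2.91, and the 8 others between 0.563 and 1.97.

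Afm was detected at the edge of the assay and did not have enough tags for the test. The tag counts were 0, 3, 3 and 2 in HFW mice 34, 36, 38 and 40 and 1, 1, 4 and 3 in HF mice 23, 25, 28 and 29. They were 0, 5, 1 and 2 in NW mice 11, 12, 15 and 20 and 3, 9, 0 and 2 in N mice 4, 5, 7 and 8. The highest count was 9 tags in N mouse 5, and each group but HF had 1 mouse without a tag. Pooled over each group, Afm had 8 tags in HFW, 9 in HF, 8 in NW and 14 in N. In a fit with no filter on low counts its log2 fold change was 0.32 (SE 0.81) in HFW minus HF and -0.69 (SE 0.76) in NW minus N, and neither passed (edgeR adjusted p = 1.0 and 0.767). Differences of that size in Afm were not detectable with so few tags.

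Afp, the fetal member, was at 0 tags in each library. A single library allows 3 tags, which is 52.95 CPM in the shallowest. Of the 29 secretory pathway genes described below, 4 were also at 0 tags in all libraries, among them Srp14 and Sec61g. Whether 0 tags of a gene, here or among the cell type markers, reflects absent RNA or missed tags was not tested. Of 11 measured fetal liver and progenitor genes 6 were at 0 tags in all libraries as well, among them Igf2, a fetal growth factor, Gpc3, a cell-surface proteoglycan, Dlk1, a marker of hepatoblasts, and the RNA-binding protein Igf2bp3. The other 5 had 1 to 8 tags over all libraries and 0 of the 11 had enough tags for the test. Zhx2, a repressor of Afp in the adult mouse liver, had 7 tags over all libraries, and Zbtb20, another such repressor, had 60.

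Transcription factors that act on albumin family promoters or on hepatocyte genes were mostly below the filter, and 3 with enough tags are described here. Tef, a clock-driven factor related to the albumin D-site binding protein, passed on neither diet alone. It had log2 fold changes of 0.44 (SE 0.26, edgeR adjusted p = 0.274) in HFW minus HF and 0.68 (SE 0.26, adjusted p = 0.0851) in NW minus N. Averaged over both diets it rose by 0.56 (SE 0.19, edgeR adjusted p = 0.0219), where 15.2% of all genes tested were called higher. The call was lost without N mouse 4 (0.46, edgeR adjusted p = 0.0592), without NW mouse 11 (0.51, adjusted p = 0.0559), without N mice 4 and 8 (0.46, adjusted p = 0.0882) and with no filter on low counts (0.42, adjusted p = 0.369). Hnf4a, a nuclear receptor that drives hepatocyte genes, had 0.38 (SE 0.22) and Nfic, a nuclear factor I protein, 0.39 (SE 0.20), and neither passed (edgeR adjusted p = 0.199 and 0.147).

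Most genes of vitamin D handling, the path of the Gc ligand, had too few tags for the test, and whether that reflects little RNA or missed tags was not tested. Of 10 such genes 5 were at 0 tags in all libraries, among them Cyp2r1, the main vitamin D 25-hydroxylase, Vdr, the vitamin D receptor, and Cubn, which takes up Gc in the kidney. The 2 with enough tags were Cyp27a1, a sterol hydroxylase that can also hydroxylate vitamin D, and Rxra, the receptor's partner. In HFW minus HF they had log2 fold changes of -0.14 (SE 0.44) and -0.32 (SE 0.25), in that order, and in NW minus N of 0.46 (SE 0.44) and 0.06 (SE 0.26). Neither passed in any of the 7 contrasts. Of 10 genes of albumin recycling and uptake, B2m had enough tags, the light chain that the albumin-recycling receptor shares with class I histocompatibility molecules. It had -0.76 (SE 0.29) in NW minus N and did not pass (edgeR adjusted p = 0.0709). Fcgrt, the heavy chain of that receptor, had 3 tags in all.

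**Figure D5:**
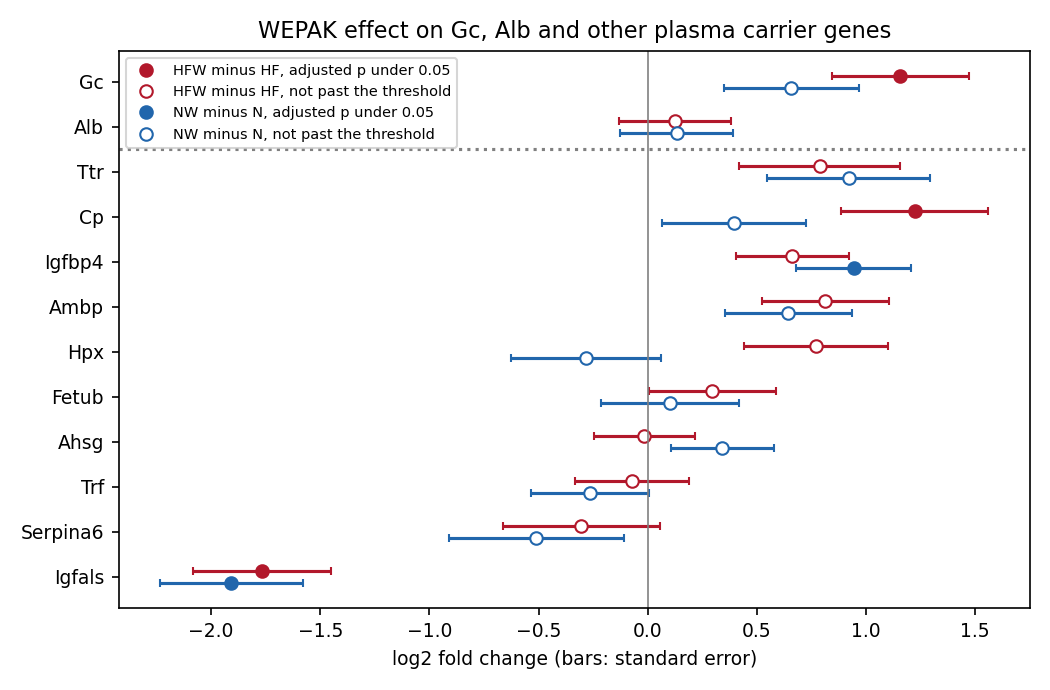
Log2 fold changes (horizontal axis, bars 1 standard error) of Gc, Alb and the 10 other plasma carrier and binding protein genes with enough tags, in HFW minus HF (red) and NW minus N (blue). Filled points have an adjusted p under 0.05: Gc, Cp and Igfals in HFW minus HF, and Igfbp4 and Igfals in NW minus N.

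Other plasma proteins that carry ligands and are made by the liver give a measure for the family. Of 23 such genes 10 had enough tags. In HFW minus HF 1 of them rose and 1 fell, where 4.21% and 5.64% of all genes were called in those directions. Cp, the copper protein ceruloplasmin, had 621 ± 107 CPM in HFW and 263 ± 71.8 CPM in HF, a log2 fold change of 1.22 (SE 0.34, edgeR adjusted p = 0.0181). It did not pass without HF mouse 23 (edgeR adjusted p = 0.0588) or 25 (adjusted p = 0.0651). The call was also lost when HFW mouse 36 (edgeR adjusted p = 0.05004) or 38 (adjusted p = 0.0618) was left out, and with no filter (0.98, adjusted p = 0.123). The 1 that fell was Igfals, which holds insulin-like growth factors in plasma, with a log2 fold change of -1.77 (SE 0.32). In NW minus N Igfbp4, a binding protein of the same growth factors, rose by 0.94 (SE 0.26, edgeR adjusted p = 0.0167), where 3.63% of genes were called higher, and Igfals fell again (-1.91, SE 0.33), where 7.36% were called lower. The median over the 10 genes was 0.48 in HFW minus HF, against 0.05 over all genes tested. Igfbp4 did not pass without N mouse 4 (edgeR adjusted p = 0.0611), without NW mouse 20 (adjusted p = 0.0611), without N mice 4 and 8 (adjusted p = 0.0999) or with no filter (adjusted p = 0.121).

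Averaged over both diets, 4 of the 10 rose with the extract and 1 fell, where 15.2% of all genes tested were called higher and 16.1% lower. The 4 were Igfbp4 (0.80, SE 0.18), Ttr, the thyroxine and retinol carrier transthyretin (0.85, SE 0.26), Cp (0.81, SE 0.24) and Ambp, the precursor of alpha-1-microglobulin and bikunin (0.73, SE 0.21), with adjusted p between 0.00162 and 0.0141 (edgeR). With no filter Igfbp4 passed and Ttr, Cp and Ambp did not (adjusted p = 0.144, 0.0620 and 0.131). Trf, the iron carrier transferrin, had -0.17 (SE 0.19) and Ahsg, the mineral-binding fetuin A, 0.16 (SE 0.17), and neither passed. The median over the 10 genes was 0.22, against 0.03 over all genes tested.

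Albumin family proteins enter the secretory pathway through the endoplasmic reticulum translocon, gain their disulfide bonds there, and Alb loses its propeptide to furin. Of 29 genes of that pathway 8 had enough tags, and in each extract contrast 1 rose, Sec61a1, a translocon subunit, and 1 fell, Kdelr1, a retrieval receptor. Of all genes tested 4.21% were called higher and 5.64% lower in HFW minus HF, 3.63% and 7.36% in NW minus N, and 15.2% and 16.1% over both diets, and 1 gene of 8 each way sets no share apart from these. Over both diets their log2 fold changes were 1.09 (SE 0.20) and -2.02 (SE 0.26), in that order. P4hb, a protein disulfide isomerase, had -0.11 (SE 0.29) in HFW minus HF and Furin -0.26 (SE 0.31), and neither passed. Sec61a1 did not pass by edgeR without HFW mouse 40 in HFW minus HF (0.97, adjusted p = 0.0548) or without N mouse 4 in NW minus N (0.89, adjusted p = 0.0687). In NW minus N it also did not pass without N mice 4 and 8 (1.01, edgeR adjusted p = 0.0781), and with no filter it passed in neither contrast (adjusted p = 0.235 and 0.0889).

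Genes beside the family on chromosome 5 mostly had too few tags for the test. Of 10 neighbours 4 were at 0 tags in all libraries and 1 had enough tags, Slc4a4, a bicarbonate cotransporter gene next to Gc. It had 1269 ± 251 CPM in HFW and 1067 ± 65.1 CPM in HF, a log2 fold change of 0.25 (SE 0.25), and in NW minus N it had -0.12 (SE 0.25). Neither passed (edgeR adjusted p = 0.550 and 0.814).

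Across the 16 libraries, the 5 genes whose log2 CPM followed Gc most closely were Pzp, an alpha-macroglobulin of plasma (Pearson r = 0.940), Trfr2, which senses iron-loaded transferrin (0.932), Creb3l3, a liver transcription factor of the fasting response (0.922), Clmn (0.922) and Acaa2, a thiolase of fatty acid oxidation (0.921). For Alb they were Napa, a vesicle fusion factor (0.831), Serpina1c, a protease inhibitor of the alpha-1-antitrypsin group whose copies are near-identical (0.823), Grpel1, a mitochondrial import cofactor (0.807), Cyp4f14, a fatty acid hydroxylase (0.799), and H2-T23, a class I histocompatibility gene (0.798). Gc and Alb had an r of 0.526 with each other. These values share libraries, depth and group structure and are descriptions. By Spearman rho, 3 of the 5 genes for Gc and 2 of the 5 for Alb were the same.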

How the data were processed

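Per the labels, cDNA of total liver RNA primed with oligo-dT was digested with NlaIII and EcoP15I and the tags were amplified by PCR. Per the file headers, the table deposited by the authors gives each mouse 1 column of unnormalized counts, with a row for each RefSeq transcript. By which tool tags were mapped, to which RefSeq release, and what was done with shared tags is not given in the sources used here. No batch and no molecular identifiers appear in the labels, so the 3-tag floors cover counting error only. The intervals of fold changes come from the fit and include the spread between mice. Rows without a symbol (417 of 26782, 0.0729% of tags) were dropped, 40 of 41 symbols turned into dates were restored, and counts were summed by symbol.

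All 16 libraries entered a single edgeR 4.0.16 fit under R 4.3.3, with TMM scaling, its default filter at a minimum count of 10, a robust quasi-likelihood F test and Benjamini-Hochberg adjustment over 1046 genes at 0.05. The standard error is the size of a log2 fold change divided by the root of F, and 95% intervals are 1.96 standard errors. Log2 CPM used a prior count of 2. The fit was run on counts simulated from the means and dispersions of these same data, which cannot show how well the model suits the real libraries. Within groups, library pairs differed at a chi-square of 2.24 to 9.64 for each degree of freedom, so none was counted as a duplicate. Alternatives used limma 3.58.1 and DESeq2 1.42.0.

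Members, gene lists and alternatives were chosen with earlier results of these data known. Named are all members, list genes past the threshold or else up to 4 with the smallest p, genes at 0 tags, and the 5 genes most like each tested member. Others named, among them Zhx2, Zbtb20, Trf, Ahsg, P4hb and Furin, were added after their values were seen. Results for 1 gene of the transcription factor list are not reported here.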

Additional observations from a re-analysis of the deposited data

How the results depend on the processing

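No paired analysis was possible because the groups share no replicate number. With 1 mouse left out at a time, the genes called numbered 40 to 150 in HFW minus HF (103 with all mice), 31 to 178 in NW minus N (115), 0 to 31 in HF minus N (1), 0 to 3 in HFW minus NW (0) and 0 to 107 in the mean high-fat effect (6). The HFW minus HF count was 51 without HF mouse 23, 40 without HF mouse 25, 59 without HFW mouse 38 and 65 without HFW mouse 40. In NW minus N it was 31 without N mouse 4, 47 without NW mouse 15 and 178 without N mouse 8. The log2 fold change of Gc then ran from 0.97 to 1.41 in HFW minus HF, 0.40 to 1.08 in NW minus N, -1.18 to -0.54 in HF minus N and -0.81 to -0.51 in the mean high-fat effect. That of Alb ran from -0.035 to 0.24 in HFW minus HF and from -0.23 to 0.10 in the interaction. Without N mice 4 and 8 together, the counts were 156 in HFW minus HF, 38 in NW minus N and 55 in the mean high-fat effect, and the Alb interaction was 0.017. With no filter they were 70 in NW minus N and 30 in the mean high-fat effect, and Alb was at -0.10 in HFW minus HF. By the DESeq2 Wald test 2 genes were called in HF minus N and 17 in the mean high-fat effect. With limma-voom 0 were called in HF minus N and the Alb interaction was 0.019, and with at least 10 counts in each of 4 libraries it was 0.00068. Fitting only the groups compared gave 0 in HF minus N and 3 in HFW minus NW. The cause of these moves was not tested. Gc in HFW minus HF passed under all 11 alternatives that left no single mouse out (0.91 to 1.25, adjusted p 0.00327 to 0.0335 by edgeR, DESeq2 or limma), and its mean WEPAK effect passed under all 10 (0.77 to 1.03). Afm, with 39 tags, and Afp, with 0, had too few tags for the main test, and the reason for their low counts was not tested.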
